A study of Mus musculus with 12 samples.

Results

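The nuclear genes that encode subunits of the mitochondrial respiratory chain were followed in whole kidney through 4 stages of podocyte injury. A gene entered by its symbol: rows of the deposited count table whose names begin like those of the Nduf, Sdh, Uqcr, Cox4 to Cox8 and Atp5 families, that were no named pseudogene and that held at least 10 counts over the 12 libraries. Of 106 rows with such names, 13 were pseudogenes and 4 had fewer counts (Cox7b2, Cox8c, Ndufb11b and Ndufa11b), which left 89 of the 56722 genes in the table. They comprised 38 genes of complex I, 8 of complex II, 8 of complex III, 17 of complex IV and 18 of complex V, the ATP synthase. All 89 passed the filter on low counts and were among the 19821 genes tested. The 89 rows carry 88 symbols, because Atp5o has 2 rows. The name pattern also took in the 4 assembly factors Sdhaf1 to Sdhaf4, the related protein gene Cox7a2l and the gene copies Ndufb4c, Ndufs6b and Cox6c2, and it passed over Cox4i1, Cox4i2, Ndufab1, Cyc1 and Cycs. Those 5 genes were read as a list of their own.

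All mice were Pod-TRECK mice, a line in which diphtheria toxin injures podocytes, the epithelial cells of the glomerular filter. Toxin-treated mice received 100 ng of diphtheria toxin intraperitoneally, and kidneys were taken after 5, 14 or 21 days, while control mice of the same line had no treatment at all. Each of the 4 groups had 3 biological replicates. Because controls had no injection, effects of podocyte loss and of the toxin or the injection itself cannot be told apart. The sources used here give neither the promoter that drives the toxin receptor nor the age and sex of the mice.

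Complexes I to IV pass electrons from NADH and succinate to oxygen. Complexes I, III and IV also pump protons across the inner mitochondrial membrane, and complex V uses the returning protons to make ATP. Complexes I, III, IV and V are mosaics of subunits from the nuclear and the mitochondrial genome, whereas complex II is encoded in the nucleus alone. In the kidney the tubules, above all the proximal tubule, are dense in mitochondria, since reabsorption of salt and solutes is paid for largely by oxidative phosphorylation.

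Libraries held 31023852 to 46420299 counts. Levels are CPM values, counts relative to the library size after scaling by TMM (trimmed mean of M-values). Log2 fold changes and p-values come from edgeR's quasi-likelihood test, adjusted by Benjamini-Hochberg over all genes tested, with a call at an adjusted p under 0.05, and a gene that fell or rose by a number did so on the log2 scale. TMM factors differed between groups, from 0.778 to 0.802 in control to 1.31 to 1.32 at day 14, so scaling by library totals alone is given beside the named genes and lists whose direction or call it changes. The library labelled day 21 replicate 2 stood apart from its group. The summed level of 10 podocyte markers was 327 to 351 CPM in the control libraries, 101 to 123 at day 5, 163 to 168 at day 14 and 120 to 277 at day 21, with the top value in replicate 2. Day-21 results are therefore given with and without that library. Of 10 podocyte markers, 8 fell at day 5, which checks the labels of that group. Comparisons with control share the control libraries.

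NRF1 and the ETS-family factor GABP are known to bind promoters of many respiratory chain genes, so the promoters of the genes on which the results turn are shown first. RefSeq promoter windows of 300 bases, from 250 before to 50 after the gene start, were found for 72 member symbols. Upper case marks matches to GCGCANGCG (NRF1) or CCGGAAG (ETS) on either strand, and adjacent or overlapping matches run together. On GRCm38.p6 the windows are Sdha chr13:74350191-74350490 (minus strand), Uqcrc1 chr9:108936398-108936697 (plus), Cox6a1 chr5:115348909-115349208 (minus), Sdhb chr4:140961021-140961320 (plus), Ndufa10 chr1:92473709-92474008 (minus), Cox6b2 chr7:4753045-4753344 (minus) and Cox7a2l chr17:83514284-83514583 (minus). The first 5 belong to genes that fell at day 14, among them Ndufa10, which held none of the motifs searched, and the last 2 to genes that were not called lower then.
Sdha: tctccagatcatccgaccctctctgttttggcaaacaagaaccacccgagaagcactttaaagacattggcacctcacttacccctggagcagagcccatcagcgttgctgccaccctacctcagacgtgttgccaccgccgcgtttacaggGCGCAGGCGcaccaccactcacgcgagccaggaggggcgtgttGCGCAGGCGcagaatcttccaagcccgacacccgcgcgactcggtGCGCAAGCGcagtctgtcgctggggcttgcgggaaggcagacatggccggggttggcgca
Uqcrc1: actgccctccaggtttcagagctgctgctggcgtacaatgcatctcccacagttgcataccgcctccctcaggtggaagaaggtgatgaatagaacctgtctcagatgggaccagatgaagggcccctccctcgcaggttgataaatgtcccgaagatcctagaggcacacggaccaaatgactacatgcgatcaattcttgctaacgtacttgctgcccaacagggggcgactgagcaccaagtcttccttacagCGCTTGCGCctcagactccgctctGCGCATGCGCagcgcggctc
Cox6a1: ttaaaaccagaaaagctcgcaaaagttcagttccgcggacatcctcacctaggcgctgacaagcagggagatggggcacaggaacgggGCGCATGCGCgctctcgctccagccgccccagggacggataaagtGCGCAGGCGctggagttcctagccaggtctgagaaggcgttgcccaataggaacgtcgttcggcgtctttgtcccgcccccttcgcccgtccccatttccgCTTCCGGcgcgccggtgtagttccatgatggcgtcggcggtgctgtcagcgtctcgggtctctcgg
Sdhb: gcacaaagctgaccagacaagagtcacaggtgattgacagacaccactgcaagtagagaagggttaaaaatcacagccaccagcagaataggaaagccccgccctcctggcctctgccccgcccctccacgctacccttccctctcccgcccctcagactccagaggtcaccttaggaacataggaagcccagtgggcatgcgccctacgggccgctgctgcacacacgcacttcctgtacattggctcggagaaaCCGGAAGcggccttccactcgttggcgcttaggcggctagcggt
Ndufa10: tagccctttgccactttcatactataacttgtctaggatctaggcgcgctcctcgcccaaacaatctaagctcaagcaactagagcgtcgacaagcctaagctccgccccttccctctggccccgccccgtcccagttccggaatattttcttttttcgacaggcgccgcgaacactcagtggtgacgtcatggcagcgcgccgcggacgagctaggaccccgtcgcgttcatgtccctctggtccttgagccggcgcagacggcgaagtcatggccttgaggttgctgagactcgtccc
Cox6b2: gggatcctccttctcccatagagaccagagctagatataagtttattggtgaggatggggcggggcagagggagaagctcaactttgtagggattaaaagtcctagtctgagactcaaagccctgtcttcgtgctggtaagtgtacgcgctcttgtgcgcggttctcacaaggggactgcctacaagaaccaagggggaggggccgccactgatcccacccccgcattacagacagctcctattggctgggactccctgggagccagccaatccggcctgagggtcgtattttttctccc
Cox7a2l: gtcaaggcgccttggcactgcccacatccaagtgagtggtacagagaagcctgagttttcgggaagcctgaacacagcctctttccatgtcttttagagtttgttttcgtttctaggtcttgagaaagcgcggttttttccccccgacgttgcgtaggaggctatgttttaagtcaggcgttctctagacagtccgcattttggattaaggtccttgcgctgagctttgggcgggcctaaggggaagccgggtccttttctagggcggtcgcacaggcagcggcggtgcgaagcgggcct
Of the 72 member promoters, 22 (30.6%) held the NRF1 motif, against 7.03% of 27025 promoters of all genes. The ETS motif was in 20 (27.8%) against 9.93%, and 35 (48.6%) held at least 1 of these motifs, against 15.5% of all promoters. AAGATGGCG, a YY1 motif, was in 7 (9.72%) against 1.64%, and TCAAGGTCA, a motif of the estrogen-related receptors, was in 2 (2.78%) against 0.466%. Sdha, which encodes the flavoprotein of succinate dehydrogenase, and Cox6a1 each had 3 NRF1 matches, and Cox6a1 also had an ETS match, while Ndufa10, Cox6b2 and Cox7a2l had none of the 4 motifs. Those of Sdha were separate, whereas 2 of those of Cox6a1 overlapped, because the stretch GCGCATGCGC matches once on each strand. Single genes went either way: Ndufa10 had no match and went from 245, 257 and 241 CPM in control to 88.2, 89.9 and 84.7 at day 14, and Atp5g2, the gene of complex V that fell least, had 2 NRF1 matches. Both lay in 1 such stretch, in a window not shown here. Members with and without the NRF1 motif had like medians: the median log2 fold change at day 14 was -1.12 over 21 members with it and -1.14 over 50 without it. A match is a description of the letters in the window and no evidence of binding.

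In the control kidney the 89 genes together took 1.69% of all counts. Per kilobase of the length given in the table, the highest levels in control were those of Atp5b (622 CPM) and Atp5a1 (614), which encode the catalytic beta and the alpha subunit of the ATP synthase. Cox6a1, the general isoform of a small complex IV subunit, followed at 542, Ndufa4 was at 314 and Sdha at 206. Of the isoforms known mainly from other tissues, Cox6a2 (1.45), Ndufa4l2 (2.22), Cox6b2 (2.38) and Cox8b (6.34) were low on the same scale. Cox7a1, at 20.3, was near general subunits such as Ndufb7 (21) and Atp5g1 (22.4).

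The summed level of the 89 genes was somewhat below control at day 5 and lowest at day 14. It was 20622, 21217 and 22119 CPM in the 3 controls, 19226, 18873 and 18351 at day 5, and 8748, 8863 and 9364 at day 14. The day-21 libraries spread widely, at 10577, 20368 and 12521. On this scale day-5 and day-14 libraries were all below every control, whereas day-21 replicate 2 came close to the control range. Group means were 88.3% of control at day 5, 42.2% at day 14 and 68% at day 21, or 54.2% at day 21 without replicate 2. Scaled by library totals alone, the same means were 97.4%, 69.9% and 91.2%, and 83.3% at day 21 without replicate 2. The day-5 libraries (16468, 16555 and 16382) then overlapped the controls (16466, 16510 and 17724), and the day-14 libraries (11484, 11639 and 12310) lay below them.

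**Figure D1:**
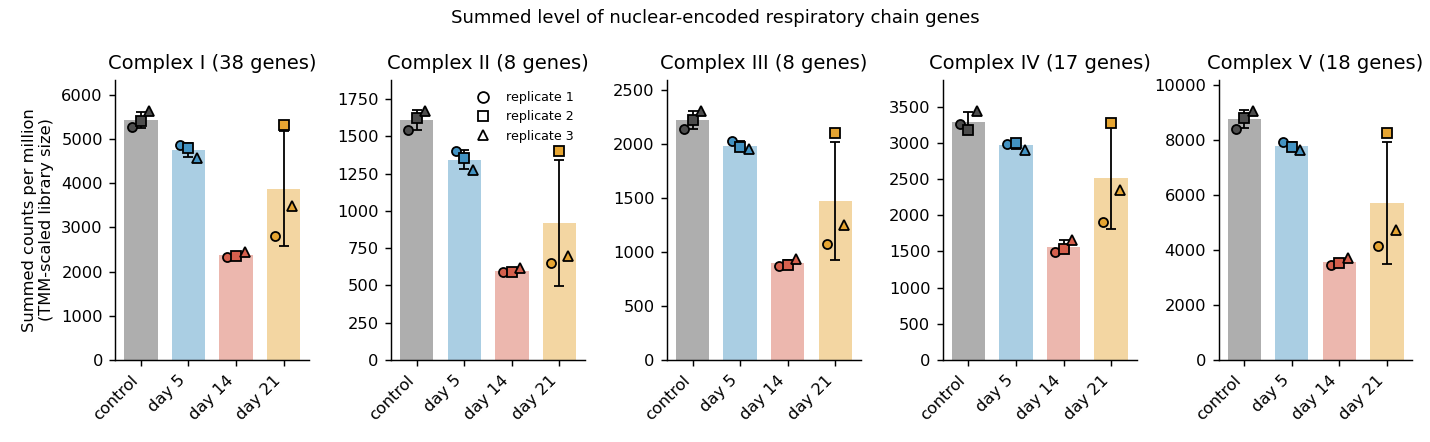
Summed CPM of TMM-scaled library size for the genes of each complex; bars are group means, error bars the SD of 3 libraries, and points single libraries. In each complex the 3 day-14 libraries lie lowest, and day-21 replicate 2 (square) lies near the controls.

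By complex, the day-14 sum was 43.7% of control for complex I, 37.1% for complex II, 40.3% for complex III, 47.5% for complex IV and 40.7% for complex V. The balance among the complexes moved little. Complex II genes made up 7.55% ± 0.0805 of the counts of the 89 genes in control and 6.65% ± 0.0731 at day 14 (SD, n = 3), and the groups did not overlap. Complex IV genes went from 15.4% ± 0.423 to 17.4% ± 0.374, and complex V genes from 41.1% ± 0.344 to 39.6% ± 0.128. These shares do not depend on the scaling between libraries.

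At day 5, few single genes passed the test. Sdhaf1, an assembly factor that helps insert iron-sulfur clusters into complex II, was 24.5, 21.3 and 23.6 CPM in control and 15.4, 14 and 15.8 at day 5. It fell by 0.62 on the log2 scale (SE 0.12, adjusted p = 0.00527), with no overlap between the groups. Cox7a2l, whose protein takes part in joining complexes III and IV into a supercomplex, was 108, 109 and 112 in control and 92.7, 82.9 and 85.2 at day 5. Its log2 fold change was -0.34 (adjusted p = 0.022). Cox6b2 rose by 0.70 (SE 0.18, adjusted p = 0.0233). Both of these calls were lost with library totals alone, at -0.19 for Cox7a2l (adjusted p = 0.39) and 0.84 for Cox6b2 (adjusted p = 0.0512), and the call on Cox7a2l also without control replicate 3 or day-5 replicate 2 or 3 (adjusted p 0.0519, 0.098 and 0.0832). The other 86 genes were not called, although 87 of the 89 log2 fold changes were negative, with a median of -0.19 against 0.00 over all genes tested. Of all genes tested, 5.09% were called lower and 9.77% higher in this comparison, so 2 lower and 1 higher of 89 is no more than the background. Without day-21 replicate 2, which enters this comparison only through the filter, the scaling and the shared spread, 23 members were called lower and 1 higher, against 14.9% of all genes lower and 17.4% higher. A fit to the 6 control and day-5 libraries alone called 48 lower and 1 higher, against 19.1% of all genes lower and 19.3% higher.

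At day 14, 83 of the 89 genes fell, 1 rose and 5 did not pass the test. The background was 28.8% of all genes lower and 31.2% higher. The median log2 fold change was -1.14, against 0.08 over all genes tested. Calls lower were 37 of 38 in complex I, 7 of 8 in complex II, 8 of 8 in complex III, 13 of 17 in complex IV and 18 of 18 in complex V. With library totals as the only scaling, which moves the median of all genes by 0.73 on the log2 scale, 60 members were lower and 4 higher (Ndufa4l2, Cox7a2l, Sdhaf2 and Cox6b2). On that scale 11.2% of all genes were lower and 66.4% higher, and the members' median was -0.41. The fall of most members is thus common to both scales, and its size is not. In whole-tissue RNA, fewer cells of a type and less RNA per cell cannot be told apart.

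**Figure D2:**
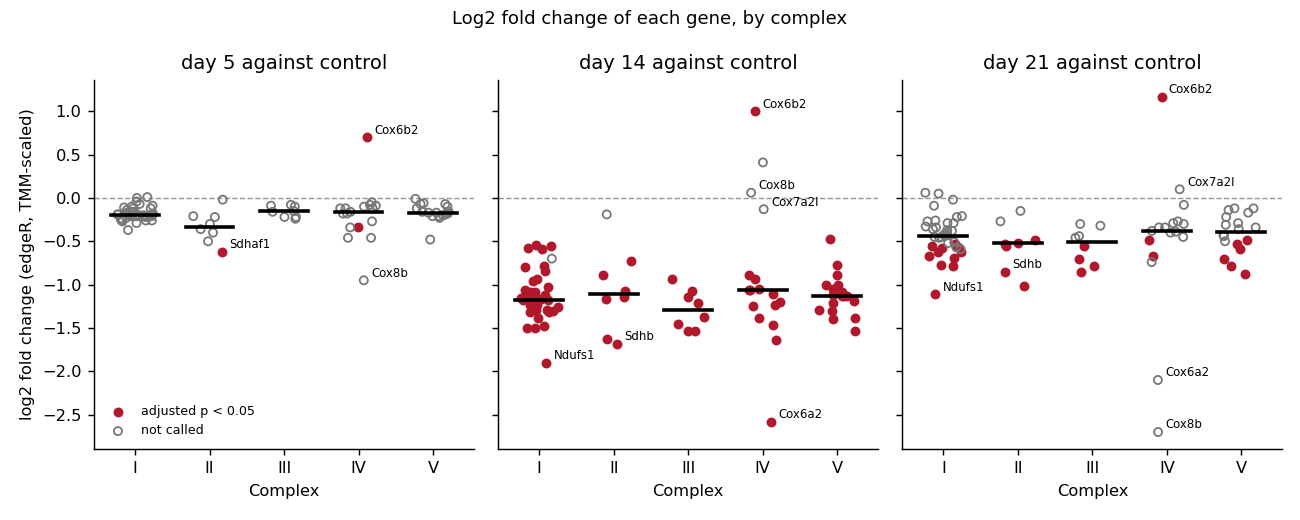
Log2 fold change against control (TMM-scaled, edgeR) of each of the 89 genes by complex at days 5, 14 and 21; filled points have an adjusted p under 0.05, and black lines are medians. At day 14 nearly all genes lie below 0, with Ndufs1 and Cox6a2 among the lowest and Cox6b2 as the called gene above 0.

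In complex I, the iron-sulfur subunit Ndufs1 fell most. Its level was 297, 317 and 339 CPM in control, 282, 263 and 252 at day 5, 87.2, 84.3 and 84.2 at day 14, and 89.7, 266 and 85.1 at day 21. All day-14 libraries were far below every control, as were day-21 replicates 1 and 3, whereas day-21 replicate 2 was closer to the controls. The day-14 log2 fold change was -1.90 (SE 0.36, adjusted p = 0.00107). Ndufs1 lies on chromosome 1 from 63182755 to 63215992 (GRCm39, minus strand). It overlaps Eef1b2 on the opposite strand, which held 81.6% as many counts, and without a known strand setting shared reads cannot be told apart. Ndufv1, a core subunit that binds the flavin, fell too, at -1.31 (adjusted p = 0.000268). Over the 7 core subunits the median was -1.26 and all 7 were called lower. Among the accessory subunits, 29 of 29 were called lower, with a median of -1.17.

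The structural modules of complex I fell by like amounts. Medians at day 14 were -1.16 over 9 genes of the NADH-oxidizing N module, -1.26 over 7 of the quinone-reducing Q module, -1.17 over 9 of the proximal and -1.22 over 11 of the distal membrane arm. The genes that fell least were Ndufb1 (log2 fold change -0.54, adjusted p = 0.0152), Ndufa7 (-0.55, adjusted p = 0.000395) and Ndufa2 (-0.58, adjusted p = 0.00897). Ndufa7, an accessory subunit of the N module, was 89.9, 89.5 and 93.9 CPM in control and 62, 63.6 and 61.5 at day 14. By day 21 it was 78, 94.8 and 97, and the last 2 libraries were above the control range. With library totals alone, the day-14 values of all 3 turned positive: 0.19 for Ndufb1 (adjusted p = 0.191), 0.18 for Ndufa7 (adjusted p = 0.174) and 0.14 for Ndufa2 (adjusted p = 0.44). Ndufa3, another accessory subunit, went from -0.59 (adjusted p = 0.0334) to 0.14 (adjusted p = 0.475). Its call was also lost without control replicate 1, 2 or 3 (adjusted p 0.0508, 0.0584 and 0.0685) or day-14 replicate 1 or 2 (adjusted p 0.123 and 0.0666). The call on Ndufb1 was lost without day-14 replicate 1 (-0.50, adjusted p = 0.0528). Ndufb1 overlaps Cpsf2 on the opposite strand, which held 47.2% as many counts. Ndufs6b, a copy with 514 counts in all, was the uncalled member of complex I, at -0.70 (adjusted p = 0.185).

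All 4 subunits of complex II, which is also an enzyme of the citric acid cycle, fell at day 14. Sdha was 798, 877 and 872 CPM in control, 768, 736 and 688 at day 5, 279, 273 and 273 at day 14, and 279, 711 and 277 at day 21. The iron-sulfur subunit Sdhb was 277, 279 and 305 in control and 90.7, 89.2 and 89 at day 14. Neither gene's control and day-14 libraries overlapped, and the spread within day 14 was small. Log2 fold changes were -1.63 for Sdha (SE 0.31, adjusted p = 0.00105) and -1.68 for Sdhb (SE 0.26, adjusted p = 0.000318). The membrane anchors Sdhc and Sdhd, which hold the enzyme in the inner membrane, fell by 1.16 and 1.07. Among the assembly factors, Sdhaf1 fell by 1.14 (adjusted p = 3.52e-05), Sdhaf4 by 0.89 and Sdhaf3 by 0.73. The calls on Sdhaf4 (-0.16, adjusted p = 0.412) and Sdhaf3 (-0.00, adjusted p = 0.981) were lost with library totals alone. Sdhaf2, which helps attach flavin to Sdha, had a log2 fold change of -0.19 (adjusted p = 0.0861). It overlaps Cpsf7 on the opposite strand, whose counts were 109% of its own and ran with them over the 12 libraries (Pearson r 0.95, as a description), so its value is uncertain.

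In complex III, which passes electrons from ubiquinol to cytochrome c, the Rieske iron-sulfur protein gene Uqcrfs1 fell by 1.54 (SE 0.23, adjusted p = 0.000253). Its levels were 268, 269 and 309 CPM in control, 256, 237 and 235 at day 5 and 94.8, 96.8 and 99.1 at day 14. The core protein genes Uqcrc2 and Uqcrc1 fell by 1.53 and 1.45, and the small subunits Uqcr10 and Uqcrh, the least changed of the complex, by 1.07 and 0.94. The call on Uqcrh was lost with library totals alone (-0.21, adjusted p = 0.11). Every one of the 8 genes was called lower at day 14 after TMM scaling. Day-14 levels lay below the control levels in each of these 5 genes.

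Complex IV, cytochrome c oxidase, was the most mixed. The subunits known from most tissues fell: Cox5a by 1.05, Cox5b by 1.06, Cox6a1 by 1.20, Cox6b1 by 0.89, Cox7a2 by 1.25, Cox8a by 1.06 and Ndufa4, a subunit first assigned to complex I, by 1.39 on the log2 scale. All 10 of these general subunits were called lower, with a median of -1.09. Outside that set, Cox7a2l was 98.5, 101 and 100 CPM at day 14, at -0.13 (adjusted p = 0.193), though its libraries lay below the 3 controls. Scaled by library totals alone, Cox7a2l was called higher at day 14 (0.60, adjusted p = 0.00232), and the call on Cox6b1 was lost (-0.16, adjusted p = 0.324).

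Cox6b2 was the called exception. This isoform of Cox6b1 is known mainly from testis. It was 2.94, 2.29 and 2.69 CPM in control, 3.66, 4.39 and 4.78 at day 5, 4.88, 5.38 and 5.62 at day 14, and 6.49, 4.62 and 6.72 at day 21. Every toxin-treated library was above every control, day-21 replicate 2 included. Log2 fold changes were 1.00 at day 14 (SE 0.18, adjusted p = 0.00071) and 1.17 at day 21 (SE 0.18, adjusted p = 0.00134). The day-5 call was lost without control replicate 2 (0.56, adjusted p = 0.101), control replicate 3 (0.66, adjusted p = 0.0843), day-5 replicate 2 (0.68, adjusted p = 0.0733) or day-5 replicate 3 (0.60, adjusted p = 0.105). In the 3 controls its share of the Cox6b1 and Cox6b2 counts was 0.756%, 0.63% and 0.692%, and at day 14 it was 2.55%, 2.61% and 2.45%. Because Cox6b1 fell while Cox6b2 rose, the share rose more than the level, yet Cox6b1 still held 97.5% of the counts at day 14. Cox6b2 lies on chromosome 7 from 4754791 to 4756093 (GRCm39, minus strand).

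**Figure D3:**
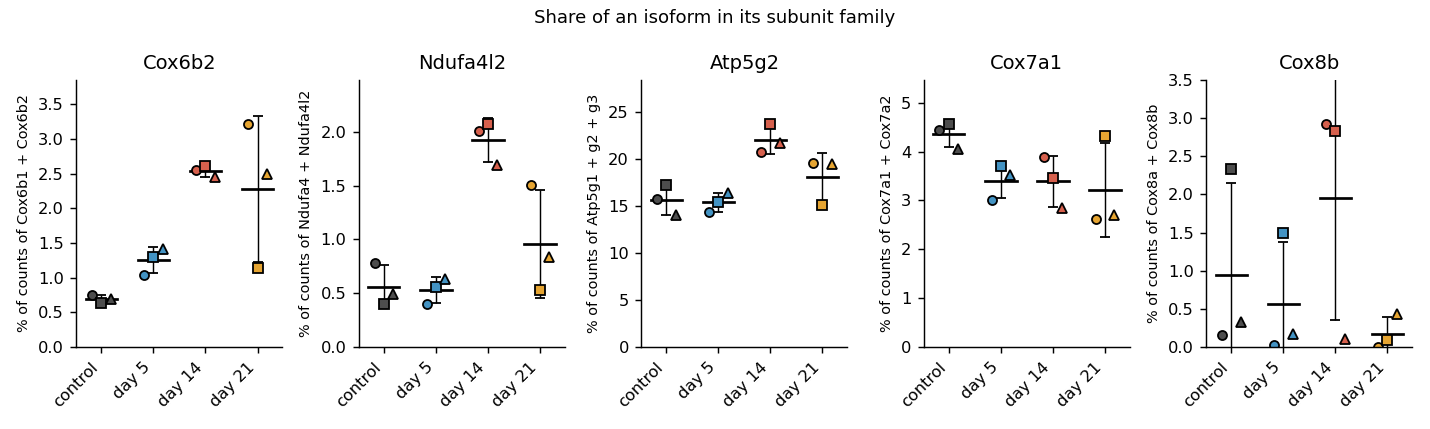
Percent of the counts of a subunit family that came from 1 isoform, by group; lines are means, error bars the SD of 3 libraries, and points single libraries. Cox6b2 and Ndufa4l2 took larger shares at day 14 than in control, Atp5g2 rose from 15.7% to 22.1%, and Cox8b differed between libraries of 1 group.

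Other isoform pairs differed from one another. Ndufa4l2, a paralog of Ndufa4 known to be induced in hypoxia, was 3.38, 1.78 and 2.13 CPM in control and 3.11, 3.41 and 3.17 at day 14, so the groups overlapped (log2 fold change 0.41, adjusted p = 0.19). Its share of the pair went from 0.559% ± 0.2 to 1.92% ± 0.207 (SD, n = 3), without overlap, as Ndufa4 fell. With library totals alone it was called higher at day 14 (1.13, adjusted p = 0.00454). Ndufa4l2 overlaps Shmt2 on the opposite strand, which has far more counts, and reads of the pair cannot be told apart here.

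Cox7a1 and Cox6a2, isoforms of heart and skeletal muscle, fell with the rest. Cox7a1 was 10.4, 11 and 11.2 CPM in control, 7.32, 8.7 and 7.67 at day 5 and 3.7, 3.41 and 3.34 at day 14 (log2 fold change -1.64, adjusted p = 0.00189). Cox6a2 was 1.45, 1.78 and 1.94 in control and 0.405, 0.245 and 0.195 at day 14 (log2 fold change -2.58, SE 0.94, adjusted p = 0.0342). The call was lost on leaving out any 1 of the control or day-14 libraries (adjusted p from 0.0544 to 0.0979) and with library totals alone (-1.86, adjusted p = 0.0692). Without day-21 replicate 2, which held 39 counts of Cox6a2 where replicates 1 and 3 of its group held 2 and 0, and which enters this comparison through the shared spread, the log2 fold change was again -2.58, with an SE of 0.33 and an adjusted p of 2.7e-05. Markers of skeletal and cardiac muscle had a sum over 12 markers of 1.57 to 2.14 CPM in control and 2.87 to 56 at day 14, while both isoforms were lower. Of the 6 markers tested, 5 were called higher and 1 lower at day 14. Within day 14, Myh4, a marker named after its values were seen, was 24.9, 21.1 and 0 CPM in replicates 1, 2 and 3. Both isoforms were also highest in replicate 1 and lowest in replicate 3, but Cox7a1 differed little between them (3.7, 3.41 and 3.34) and Cox6a2 was near the floor. The part of muscle RNA in the levels of the muscle isoforms was not tested.

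Cox8b, an isoform of brown fat and muscle, followed single libraries rather than groups. It was 0.475, 5.51 and 0.864 CPM in control, 0.066, 3.1 and 0.362 at day 5, 3.26, 3.73 and 0.146 at day 14 and 0, 0.225 and 0.799 at day 21. Cidea, a fat marker, was high in the same 4 libraries, at 12.3 in control replicate 2, 8.33 in day-5 replicate 2 and 14.4 and 15.2 in day-14 replicates 1 and 2, against at most 3.27 in the others. It was named after its values were seen, from a list of 8 brown fat markers that includes Cox8b itself. Of the 7 tested, 1 was called lower and 0 higher at day 14, with log2 fold changes from -4.59 to 2.18. Summed over the 8 markers, the list was 48.3 to 172 CPM in control, 46.6 to 207 at day 5, 32.6 to 219 at day 14 and 27.5 to 170 at day 21. The top of 170 at day 21 came with Cox8b at no more than 0.799 and Cidea at no more than 3.27. The list as a whole thus did not follow Cox8b and Cidea. No comparison of Cox8b with control passed the test, and the part of fat RNA in its level was not tested. Cox4i2, the lung isoform outside the name pattern, was at most 0.127% of the Cox4i1 and Cox4i2 counts in the 12 libraries.

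All 18 rows of complex V fell at day 14. Atp5b was 2567, 2683 and 2658 CPM in control, 2314, 2322 and 2341 at day 5, 925, 911 and 901 at day 14, and 983, 2306 and 1020 at day 21. Its day-14 log2 fold change was -1.53 (SE 0.28, adjusted p = 0.000919), and all day-5 and day-14 libraries lay below the controls. Over the 5 genes of the catalytic head the median was -1.30, and over the 10 rows of the stalk and the membrane part it was -1.13. Atp5pb, a subunit of the peripheral stalk, fell by 1.40 and Atp5k, a small membrane subunit, by 0.77. The call on Atp5k did not hold without control replicate 2 or 3 or day-14 replicate 1 or 2 (adjusted p 0.0767, 0.101, 0.129 and 0.108) or with library totals alone (-0.04, adjusted p = 0.889).

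The 3 genes of the c subunit, which forms the rotating ring, encode the same mature protein but fell unequally. Atp5g3 fell by 1.09, Atp5g1 by 1.13 and Atp5g2 by 0.47 (SE 0.13, adjusted p = 0.00739) at day 14. Atp5g2 was 104, 110 and 112 CPM in control and 63.7, 81.2 and 90.2 at day 14. Its share of the c-subunit counts was 15.7% ± 1.58 in control, 15.4% ± 1 at day 5, 22.1% ± 1.47 at day 14 and 18.1% ± 2.55 at day 21 (SD, n = 3). All 3 day-14 shares were above all control shares. Levels of Atp5g2 turned positive at day 14 with library totals alone (0.26, adjusted p = 0.117), and the call on Atp5g1 was lost (-0.40, adjusted p = 0.0649), whereas the shares do not depend on scaling.

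The size of the fall went with coding length among the members. Across the 85 genes with a coding length in GENCODE M21, Spearman's rho between coding length and log2 fold change was -0.18 at day 5, -0.47 at day 14 and -0.50 at day 21 (-0.46 without day-21 replicate 2). Over 15222 tested genes with a coding length the same values were 0.06, 0.08 and -0.02. These are descriptions across genes that share their libraries, and the long members are mostly catalytic subunits, so length and role cannot be told apart here. The 21 longest members (567 to 2181 bases) had a median of -1.40 at day 14, against -1.12 for the 22 shortest (156 to 291 bases). At day 21, 17 of the 21 longest and 2 of the 22 shortest were called lower, and without replicate 2 these were 21 and 18.

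**Figure D4:**
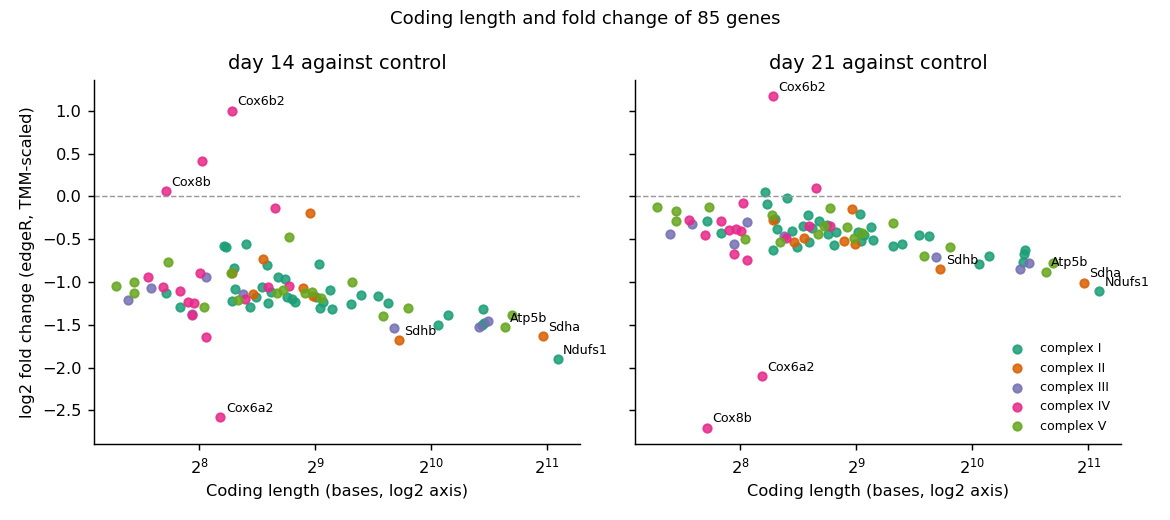
Log2 fold change against control at day 14 and day 21 by coding length in bases (log2 axis) for 85 genes, coloured by complex. Ndufs1, Sdha, Atp5b and Sdhb lie at the long and low end, and the complex IV isoforms Cox6b2, Cox6a2 and Cox8b lie apart from the other short genes.

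From day 5 to day 14, 78 members fell and 0 rose by edgeR, with a median of -0.96, while 26.1% of all genes were lower and 24.7% higher at day 14 than at day 5. At an unadjusted p under 0.05, 80 were lower and 2 higher, and DESeq2 called 78 lower and 1 higher. Complexes III and V, with 8 of 8 and 16 of 18 genes called lower, and complex I, with 36 of 38, took part in the fall between these days. Complex II had 6 of 8 and complex IV 12 of 17.

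At day 21, 29 members were lower than control, 1 was higher and 59 did not pass the test, with a median of -0.44. Of all genes, 18.5% were lower and 24.3% higher. The called genes included Ndufs1 (-1.11, adjusted p = 0.0274), Sdha (-1.01, adjusted p = 0.0226), Atp5b (-0.88, adjusted p = 0.028), Sdhb (-0.85, adjusted p = 0.0215) and Uqcrc1 (-0.78, adjusted p = 0.0212). Complex II had 6 of 8 genes called lower and complex IV 2 of 17. With library totals alone, 8 members were lower and 6 higher than control at day 21, with a median of 0.00 (the higher ones were Ndufb1, Ndufa7, Ndufa2, Cox7a2l, Sdhaf2 and Cox6b2), against 7.38% lower and 55.7% higher of all genes. The direction for the members as a set at day 21 therefore depends on the scaling.

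Without the library labelled day 21 replicate 2, 74 members were lower and 1 higher than control, with a median of -0.71, against 28.4% of all genes lower and 33.2% higher. Ndufs1 was then at -1.87 (SE 0.08), Sdha at -1.62 (SE 0.07), Atp5b at -1.40 (SE 0.06) and Sdhb at -1.34 (SE 0.08). Per library, the median log2 ratio of the 89 genes to the control mean was -0.85, -0.02 and -0.54 in day-21 replicates 1, 2 and 3, and -1.19, -1.16 and -1.08 in the day-14 libraries. Replicate 2 had 53 of 89 genes below the control mean, and replicates 1 and 3 had 87 and 83. Leaving out day-21 replicate 1 or 3 instead left 3 or 2 genes lower, and leaving out control replicate 1, 2 or 3 left 11, 9 or 4.

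**Figure D5:**
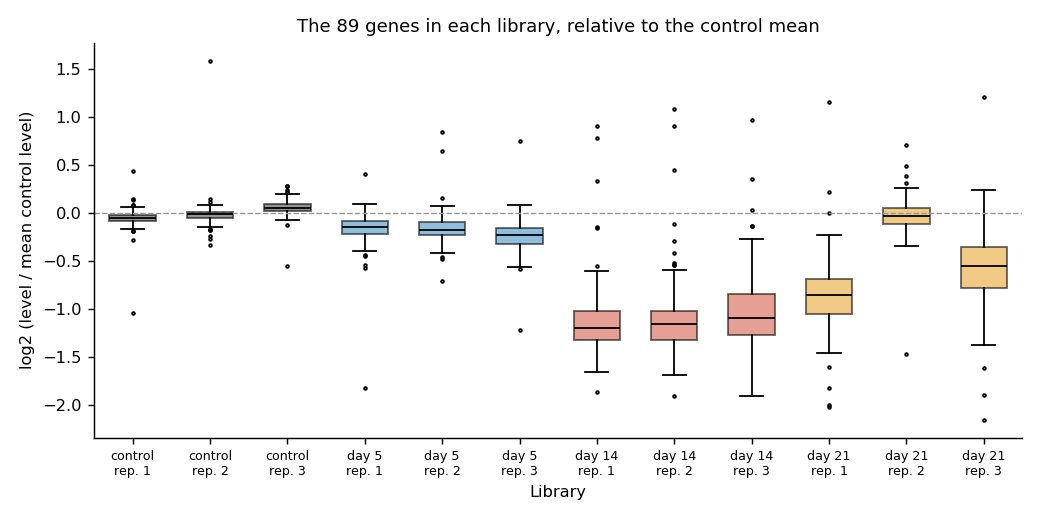
Log2 ratio of each of the 89 genes to its mean control level in each library, after adding 0.5 CPM; boxes are quartiles with the median, whiskers reach 1.5 times the box, and dots lie beyond. Day-21 replicate 2 has a median of -0.02, while replicates 1 and 3 have -0.85 and -0.54.

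Against day 14, 58 members were higher at day 21 and 0 lower by edgeR, with a median of 0.69, where 7.57% of all genes were lower and 7.03% higher. At an unadjusted p under 0.05, 80 were higher and 0 lower, and DESeq2 called 71 higher and 0 lower. Atp5e, the epsilon subunit of the ATP synthase, rose by 0.93 (adjusted p = 0.015), and Ndufa5, of the Q module, by 0.90 (adjusted p = 0.0109). This count fell to 11, 3 or 20 without day-14 replicate 1, 2 or 3, to 38 with library totals alone (2.58% of all genes), and to 0 in a fit to the 6 day-14 and day-21 libraries alone, in which edgeR called 0.293% of all genes higher and 66 members were higher at an unadjusted p under 0.05. The calls on Atp5e and Ndufa5 are among those lost in that fit. Without day-21 replicate 2, 65 were higher and 1 lower with a median of 0.42, against 12.5% and 11.4% of all genes. The lower gene was Cox6a2, which had 2 counts over day-21 replicates 1 and 3. In that fit the difference from day 14 was 0.04 for Ndufs1 (SE 0.07, adjusted p = 0.767) and 0.02 for Sdha (SE 0.07, adjusted p = 0.888), while Ndufa7 was higher by 0.49 (adjusted p = 0.00191), Cox6a1 by 0.55 (adjusted p = 0.00258) and Uqcrfs1 by 0.43 (adjusted p = 0.00536). Those genes were chosen for naming by their day-14 values.

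Day 21 and day 5 differed in 1 member, Cox7a2l, which was higher by 0.44 (SE 0.08, adjusted p = 0.00626), and edgeR called 0 lower (15 at an unadjusted p under 0.05, and 6 by DESeq2). Of all genes, 11.8% were lower and 15% higher. Without day-21 replicate 2, 66 members were lower and 2 higher, namely Cox7a2l and Cox6b2, against 27.7% lower and 27.9% higher of all genes.

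The 13 subunits of the chain that the mitochondrial genome encodes also fell. All 13 were called lower at day 14, with a median of -2.06, so their fall was larger than the median of the nuclear genes, though this difference was not tested. Their summed level was 272714 to 291473 CPM in control, 198765 to 226190 at day 5, 66640 to 69922 at day 14 and 91502 to 228242 at day 21, with the top value in day-21 replicate 2. Libraries were made by poly(A) selection, which captures mitochondrial transcripts by their short tails. Of the 5 nuclear genes outside the name pattern, all were called lower at day 14 after TMM scaling. Among them were Cox4i1, the main isoform of a large complex IV subunit (-1.12, adjusted p = 0.000282), and Cycs, cytochrome c (-1.53, adjusted p = 0.000838). With library totals alone, 12 of the 13 mitochondrial genes and 4 of these 5 were called lower (medians -1.33 and -0.59). Of all genes, 11.2% were then lower and 66.4% higher.

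Factors that build the complexes also fell. Their medians were closer to 0 than those of the complexes they build, but the difference was not tested and the ranges overlapped. At day 14, 14 of 15 complex I assembly genes were lower (median -0.88), with Ecsit at -1.42 and Foxred1 at -1.20. For complex III it was 5 of 6 (-0.60), for complex IV 17 of 20 (-0.60) and for complex V 3 of 3 (-0.92). Scaled by library totals alone, these lists had 6, 1, 4 and 1 genes lower and 1, 2, 4 and 0 higher, with medians of -0.15, 0.13, 0.13 and -0.19, so the direction for the complex III and IV factors depends on the scaling. The median of all genes was then 0.80, with 11.2% lower and 66.4% higher, so these medians lay below it on that scale too. After TMM scaling it was 0.08, with 28.8% lower and 31.2% higher. The citric acid cycle list, whose enzymes supply the chain with NADH and succinate, was lower in 14 of 14 genes (median -1.50), with Cs, citrate synthase, at -0.69 and Idh2 at -1.71. Scaled by library totals alone, 12 of the 14 were lower (median -0.77), and Cs was at 0.04 (adjusted p = 0.705). The list of the mitochondrial envelope and import was lower in 15 of 15 genes (median -0.70), with the outer membrane channel Vdac1 at -1.11, but with library totals alone 4 were lower and 4 higher (median 0.03).

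Among 14 regulators of mitochondrial biogenesis, 10 were lower and 2 higher at day 14, and with library totals alone 5 were lower and 5 higher. Of all genes, 28.8% were lower and 31.2% higher after TMM scaling, and 11.2% lower and 66.4% higher with library totals alone. Ppargc1a, the coactivator PGC-1alpha, was 77.3, 77.9 and 83.7 CPM in control, 66.1, 68.2 and 66.6 at day 5 and 31, 28.3 and 30.3 at day 14. It fell by 1.41 (adjusted p = 4.23e-05), with no overlap. Esrra, a nuclear receptor that works with it, was 88.3, 89.5 and 101 in control and 34.9, 36.7 and 41.5 at day 14, and fell by 1.30 (adjusted p = 0.00158). Tfam, which packages and transcribes mitochondrial DNA, fell by 0.98 (adjusted p = 0.000511). The 2 that rose were Nrf1 itself, by 0.29 (adjusted p = 0.0202), and Pprc1, a relative of Ppargc1a, by 1.07 (adjusted p = 8.4e-05).

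Markers of several cell types also changed at day 14, where 28.8% of all genes were called lower and 31.2% higher. The 20 proximal tubule markers fell in 20 of 20 cases at day 14 (median -2.98). Their summed level was 54717 to 64327 CPM in control, 38833 to 42156 at day 5, 3918 to 3958 at day 14 and 3879 to 35473 at day 21, with the top value in day-21 replicate 2. None of the 20 was at 0 in all libraries. Of 12 loop and distal tubule markers, 10 were called lower and 0 higher at day 14 (median -1.28). The 12 collecting duct markers were mixed, with 6 called lower and 1 higher (median -0.40). With library totals alone, 2 collecting duct markers were lower and 4 higher (median 0.32), so their direction depends on the scaling. On that scale 8 loop and distal tubule markers were lower and 1 higher (median -0.55), against 11.2% lower and 66.4% higher of all genes. The 14 macrophage and monocyte markers rose in 14 of 14 cases, from a summed 89.6 to 119 in control to 1018 to 1054 at day 14, and the 9 fibroblast markers in 9 of 9, from 166 to 254 to 1279 to 1329. The part of these changes in cell makeup in the fall of the respiratory chain genes was not tested.

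Counting limits apply to some members. In the table, 18 of the 89 genes overlap another row that holds at least 10% as many counts. For Ndufb9, Ndufb8, Ndufb2, Ndufa13 and both rows of Atp5o, an overlapping row lies on the same strand and rose and fell with the member over the libraries, so that reads cannot be assigned to 1 of them. Reads of processed pseudogenes, which are common in these families, may also be shared.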

How the data were processed

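For 12 whole-kidney libraries the authors deposited unnormalized gene counts in 1 table. The submitters' processing notes name fastp 0.20.0, featureCounts and the build GRCm39. Per the labels' protocols, libraries were poly(A)-selected, and all carry batch label 1. Aligner, strand setting and the handling of multi-mapping reads: not given in the sources used here. Columns were matched to samples by name. Group and replicate came from the titles.

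Counts were tested with edgeR 4.0.16 (R 4.3.3): filterByExpr kept 19821 genes, TMM factors, 1 coefficient per group, all 12 libraries, quasi-likelihood F test, Benjamini-Hochberg within a comparison, 6 comparisons. Each SE was computed as the size of the log2 change over the root of F. On simulated data, 76% of 2-fold and 93% of 4-fold changed genes (100 each of 18025, day 14 against control) were recovered, and 9 unchanged genes were called. The simulation drew all libraries from control means with a single spread (dispersion 0.02). It had no library that stood apart and no broad shift between groups, so recovery in the real libraries may differ. Alternatives were DESeq2 1.42.0, limma-voom 3.58.1, other scalings and filters, a replicate block and leaving out each library. Sums, shares, lengths and motifs are descriptions with no test. No 2 libraries of a group agreed within sampling noise (lowest chi-square per degree of freedom 4.9, day-14 replicates 1 and 2). Total counts of 31023852 to 46420299 per library limit the precision of genes with few counts, and carry no molecular identifiers. Coordinates of genes are GRCm39, those of promoters GRCm38.p6 (RefSeq), and the 2 were not mixed. Coding lengths were matched by gene ID.

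The members and lists were chosen with earlier results of these data known. Named were, in each complex and among the assembly factors, the 2 lowest and 2 highest day-14 fold changes. A preset list of subunits, not all of them catalytic, and the isoform families were also named. So were members called higher or in opposite directions, and from other lists a few set genes and the 2 of smallest p. Cox7a2l, Ndufa2, Ndufa3, Ndufa5, Atp5e, Ndufs6b, Atp5a1, Cycs, Myh4 and Cidea were named after their values were seen. Some genes that the rule names are not reported here.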

Additional observations from a re-analysis of the deposited data

Results flagged for a closer look

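For Cox7a2l, Ndufb1 and Ndufa2 a pair of days differed by the edgeR test, while against control 1 of these days was called and the other was near control, at an uncalled log2 fold change of the opposite sign. Cox7a2l was called lower at day 5 (log2 fold change -0.34) and was at 0.10 at day 21 (adjusted p = 0.341), and day 21 was higher than day 5 by 0.44 (adjusted p = 0.00626), with all 3 day-21 libraries (110, 114 and 130 CPM) above all 3 day-5 libraries. That difference was 0.78 (adjusted p = 0.00485) with library totals alone and 0.45 (adjusted p = 0.00039) without day-21 replicate 2. Ndufb1 was at 0.01 at day 5 (adjusted p = 0.984), was called lower at day 14 (-0.54) and was at 0.06 at day 21 (adjusted p = 0.789): day 14 was lower than day 5 by a log2 fold change of -0.55 (adjusted p = 0.0179), and day 21 was higher than day 14 by 0.60 (adjusted p = 0.0365), with the 3 day-21 libraries above the 3 day-14 libraries. On library totals alone neither difference was called, at 0.04 (adjusted p = 0.779) and 0.32 (adjusted p = 0.112). Without day-21 replicate 2 both were, at -0.55 (adjusted p = 0.00139) and 0.40 (adjusted p = 0.0422), and Ndufb1 was then at -0.15 against control at day 21. Cpsf2, on the opposite strand, overlaps Ndufb1 with 47.2% as many counts. Ndufa2 was called lower at day 14 (-0.58) and was at 0.05 at day 21 (adjusted p = 0.806), higher than at day 14 by 0.64 (adjusted p = 0.0265); its day-21 replicate 1 (64.2) lay below day-14 replicate 3 (64.6). The difference between those days was 0.38 (adjusted p = 0.139) with library totals alone and 0.56 (adjusted p = 0.0277) without day-21 replicate 2, where Ndufa2 was at -0.03 against control at day 21.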

How the results depend on the processing

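The direction of the day-14 fall held for most members in each alternative run, though 8 of the 89 changed sign with library totals alone. On leaving out 1 library, the number of members called at day 14 against control stayed between 80 and 85. Counts in this paragraph add lower and higher calls, and most have no share of all genes beside them, so they show only how calls moved between settings. With library totals as the only scaling, the members called were 1 at day 5 and 14 at day 21 against control, 8 for day 21 against day 5 and 38 for day 21 against day 14. Of all genes, 7.38% were then lower and 55.7% higher at day 21 against control. On that scale the summed level was 97.4% of control at day 5 and 69.9% at day 14, and by complex at day 14 it was 72.3% (I), 61.5% (II), 66.7% (III), 78.6% (IV) and 67.4% (V). DESeq2 called 5 at day 5, 48 at day 21 and 8 for day 21 against day 5, and limma-voom called 4 in the last. A fit to only the 6 libraries compared called 49 at day 5, 1 at day 21, and 0 for day 21 against day 5 (1 at an unadjusted p under 0.05 by edgeR) and against day 14 (66 at an unadjusted p under 0.05). This fit takes the spread from those libraries alone. It called 19.1% of all genes lower and 19.3% higher at day 5 against control, and 0.293% higher at day 21 against day 14. Requiring an absolute log2 fold change of at least 1 left 0 at day 5, 3 at day 21, 39 for day 14 against day 5, 0 for day 21 against day 5 and 1 for day 21 against day 14. Leaving out 1 library gave 1 to 24 calls at day 5, 3 to 75 at day 21, 74 to 82 for day 14 against day 5, 1 to 68 for day 21 against day 5 and 3 to 81 for day 21 against day 14. Summed levels then ran from 86.8% to 89.9% at day 5, 41.3% to 43% at day 14 and 54.2% to 77.1% at day 21.

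Named members called in either fit changed sign with library totals alone: at day 14 Ndufb1 (0.19), Atp5g2 (0.26), Ndufa7 (0.18), Cox7a2l (0.60), Ndufa2 (0.14), Ndufa3 (0.14) and Sdhaf2 (0.54), and at day 21 Ndufa7 (0.46) and Sdhaf2 (0.32). Over 1980 values of named members against control in other settings, 1708 kept direction and side of the threshold, 55 changed sign without a call in either fit, 137 lost a call, 71 gained one and 9 changed sign with a call in 1 fit. Over all 89 members, library totals alone changed the sign of 25 at day 5, 8 at day 14 and 39 at day 21 against control, and leaving out day-21 replicate 2 that of 0, 0 and 2.

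Replicate numbers did not pair the libraries: of 18 same-numbered pairs, correlations of deviations ran from -0.14 to 0.171 and 4 were over 0.1, against -0.18 to 0.202 for other numbers. With a replicate block the calls were 3, 84 and 33 against control at days 5, 14 and 21, 78 for day 14 against day 5, 1 for day 21 against day 5 and 48 for day 21 against day 14. Cox6a2 (384 counts over the 12 libraries), Ndufs6b (514) and Cox8b (723) had the fewest counts.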
